A study of Saccharomyces cerevisiae with 21 samples.

Results

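The lysine biosynthesis genes of budding yeast (Saccharomyces cerevisiae) are described here as the 8 genes LYS1, LYS2, LYS4, LYS9, LYS12, LYS14, LYS20 and LYS21, found by symbol among the 7126 loci of the deposited table. All 8 were present. They were chosen with their courses in these same libraries already known, so their values are given as a description. Where a fit across all loci counts them as called, the count stands beside the share of all loci and nothing is read from it. The study followed messenger RNA in 21 libraries, 1 every 10 min from 0 to 200 min, from cells that lack their own B-type cyclin genes. Each time point is 1 library of 1 time course, so no time point has an error of its own.

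Every library came from the same strain and treatment. The strain background is BF264-15D, mating type MATa, with bar1 replaced by hphMX4 and an arg4 mutation. The cyclin genes clb1, clb2, clb3, clb4, clb5 and clb6 are disrupted by URA3, LEU2, TRP1, HIS2, ARG4 and ADE1, in that order, and a CLB1 copy marked with LEU2 stands under the GAL1 promoter, which is active in galactose and shut off in dextrose. Cells grew at 30 °C in YEPGalactose, were stopped in G1 by alpha-factor, the pheromone of the other mating type (30 ng/ml, 160 min), and were then moved to YEPDextrose, a rich medium. The cells hold no other source of B-type cyclin by these labels than that copy. Removal of pheromone and the change of sugar thus began together and cannot be told apart. None of the labelled alleles is a gene of lysine synthesis, and no strain with its own CLB genes is compared here.

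Yeast makes lysine from 2-oxoglutarate and acetyl-CoA by the alpha-aminoadipate pathway. Homocitrate synthase takes the first step and is the enzyme that lysine inhibits. Lys14, a zinc-cluster activator, binds upstream of several LYS genes and is switched on by alpha-aminoadipate semialdehyde, an intermediate of the pathway, while Gcn4, the general activator of amino acid synthesis, acts on many of the same genes when amino acids are short.

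The promoters are shown first, because the genes with the largest climbs (LYS20, LYS9 and LYS1) differ in the motifs they hold. Sequences were read from the R64 genome (RefSeq), from 250 bases before to 50 bases after the first base of the start codon, since gene starts are coding starts in that annotation. Capitals mark TGACTC on either strand, the core of the Gcn4 site, and TCCNNNGGA, the form of the Lys14 site written with N. N is any base, so this form is loose and a match need not be a Lys14 site. TCCNNNGGA is its own reverse complement and overlaps no TGACTC match here. The lines for LYS9 and LYS1 show genes with Lys14-form matches, that for LYS12 an enzyme gene with a match to each motif, and those for LYS20 and LYS21 the pair of homocitrate synthase genes, which held neither.
LYS9 (chrXIV:715339-715638, minus strand): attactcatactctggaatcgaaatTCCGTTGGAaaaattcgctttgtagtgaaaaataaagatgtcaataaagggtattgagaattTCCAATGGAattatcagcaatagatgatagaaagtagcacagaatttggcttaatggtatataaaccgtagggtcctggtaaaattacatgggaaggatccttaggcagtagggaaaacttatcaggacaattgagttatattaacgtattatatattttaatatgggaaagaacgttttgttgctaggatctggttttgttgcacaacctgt
LYS1 (chrIX:420687-420986, minus strand): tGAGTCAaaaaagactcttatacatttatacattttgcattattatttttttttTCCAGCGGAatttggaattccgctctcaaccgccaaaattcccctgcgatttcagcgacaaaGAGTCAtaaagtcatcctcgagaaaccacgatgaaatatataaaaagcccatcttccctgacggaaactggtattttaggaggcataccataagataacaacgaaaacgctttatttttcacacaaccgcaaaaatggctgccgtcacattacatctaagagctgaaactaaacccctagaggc
LYS12 (chrIX:187583-187882, minus strand): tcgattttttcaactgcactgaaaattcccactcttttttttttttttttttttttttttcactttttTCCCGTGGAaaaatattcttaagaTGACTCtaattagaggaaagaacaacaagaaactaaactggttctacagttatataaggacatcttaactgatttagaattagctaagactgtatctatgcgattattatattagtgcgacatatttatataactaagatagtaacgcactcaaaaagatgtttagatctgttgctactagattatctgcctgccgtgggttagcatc
LYS20 (chrIV:133187-133486, plus strand): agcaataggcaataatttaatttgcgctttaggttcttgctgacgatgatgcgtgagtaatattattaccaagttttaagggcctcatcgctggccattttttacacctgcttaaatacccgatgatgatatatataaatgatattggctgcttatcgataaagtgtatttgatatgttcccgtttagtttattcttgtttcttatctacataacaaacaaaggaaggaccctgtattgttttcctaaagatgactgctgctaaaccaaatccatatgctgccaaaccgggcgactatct
LYS21 (chrIV:227143-227442, plus strand): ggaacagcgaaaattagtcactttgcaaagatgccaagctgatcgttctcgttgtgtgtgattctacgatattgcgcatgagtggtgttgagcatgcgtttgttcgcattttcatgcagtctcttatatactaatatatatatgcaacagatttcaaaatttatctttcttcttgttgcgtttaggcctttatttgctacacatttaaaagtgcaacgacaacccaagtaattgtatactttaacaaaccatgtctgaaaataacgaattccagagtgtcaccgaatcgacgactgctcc

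TGACTC occurred in 4 of the 8 promoters (LYS12, LYS2, LYS1 and LYS14) against 7.98% of all 6001 promoters of that length. TCCNNNGGA occurred in 4 of 8 (LYS12, LYS9, LYS1 and LYS14) against 3.40%. LYS12, LYS1 and LYS14 held both motifs, as did 0.517% of all promoters. LYS9 had 2 Lys14-form matches and no TGACTC, and LYS1 had 2 TGACTC matches on the opposite strand. LYS14 had 2 Lys14-form matches, of which 1 lay inside its coding sequence. LYS20, LYS21 and LYS4 held neither motif in this window. The longer TGACTCA, which contains TGACTC, was found in 3 of the 8 (LYS2, LYS1 and LYS14) and in 2.73% of all promoters. The Lys14-form matches were TCCCGTGGA in LYS12, TCCGTTGGA and TCCAATGGA in LYS9, and TCCAGCGGA in LYS1. In LYS14 they were TCCTCAGGA and TCCAGAGGA. Their middle bases differ, and a stricter form of the site could leave out some of these genes. These are letter matches, not measured binding.

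**Figure D1:**
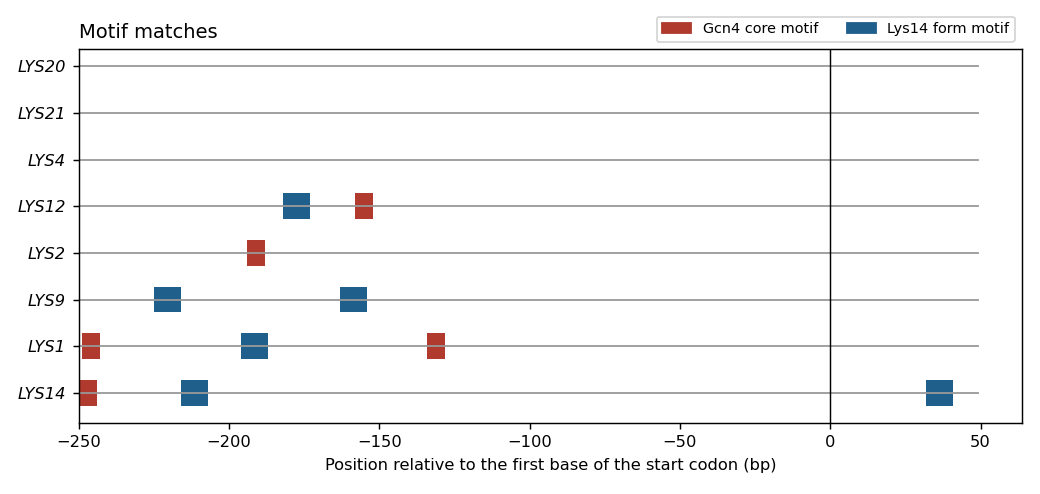
Motif matches in the promoter window of each of the 8 genes, by distance in bp from the first base of the start codon (0). Red blocks are TGACTC on either strand and blue blocks TCCNNNGGA; LYS20, LYS21 and LYS4 have no block.

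Levels are given in FPKM, a measure per transcript length and per library, after taking away the 1 that the deposited values carry. Sums over all loci ran from 1212671 (180 min) to 1911174 (0 min), 680 to 822 loci per library were at 0, and depth is unknown because the table holds no read numbers. Of the 6 a-cell genes, MFA1, MFA2, STE2, STE6 and ASG7 were highest at 0 min, with MFA1 at 34816 FPKM, and BAR1, which is disrupted, lay between 1.34 and 3.18. Their summed level was 81040 at 0 min, 6315 to 50217 in the libraries of 10 to 100 min and 2246 to 13237 in those of 110 to 200 min. Of the alpha-cell list (4 genes), MF(ALPHA)1 stayed between 0.154 and 1.14 FPKM and SAG1 between 41.5 and 72.1. STE3 was lowest at 10 min (4.58) and highest at 180 min (11.9). MF(ALPHA)2 was highest at 0 min (20.6) and lowest at 70 min (0.468). Their summed level was 77.8 at 0 min. It lay between 49.5 and 86.0 in the libraries of 10 to 100 min and between 64.8 and 82.5 in those of 110 to 200 min. None of the 4 was at 0 throughout. The part of either list in the results below was not tested. In bulk libraries, fewer cells of a kind and less RNA per cell cannot be told apart.

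The 7 enzyme genes were alike in their later course. All were higher from 80 min on than at 20 to 40 min, stood highest between 110 and 130 min and ended above their level at 0 min. Before that they differed, with LYS21 level to 70 min and LYS20, LYS9 and LYS1 well under their start at 20 to 40 min. Of the 7, 6 had their lowest value at 20, 30 or 40 min (LYS2 had it at 0 min), and 5 had their highest at 120 min. With equal sums of FPKM in all libraries LYS12 was lowest at 0 min too, and LYS21 at 50 min. LYS14, the activator, differed from them on the deposited scale. The size of the climb differed widely, from 1.66-fold between the lowest and the highest library in LYS21 to 14.5-fold in LYS20.

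**Figure D2:**
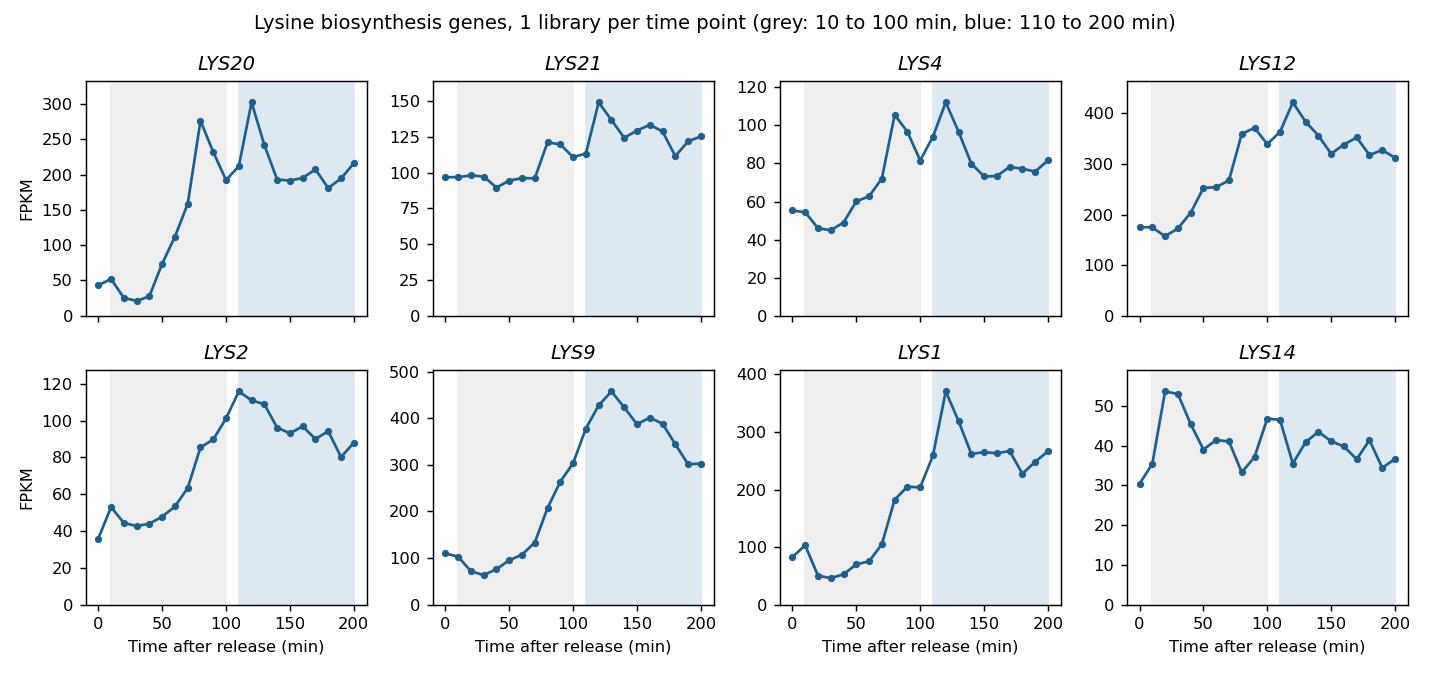
FPKM of each of the 8 genes against time after release in min, 1 point per library, each panel on its own axis from 0. LYS20 runs from 20.8 (30 min) to 302 (120 min), while LYS14 is highest at 20 min with 53.6.

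LYS20 and LYS21 encode the homocitrate synthase isoenzymes that start the pathway. LYS20 (YDL182W, chromosome IV, 133437 to 134723, 1 coding exon) had 43.0 FPKM at 0 min and 52.1 at 10 min. It was at 25.3, 20.8 and 27.6 in the next 3 libraries (20, 30 and 40 min), the lowest level of all 8 genes at those times. In the 4 libraries from 50 to 80 min it stood at 73.7, 112, 158 and 276. A dip to 192 at 100 min was followed by 302 at 120 min, after which it lay between 181 and 242 to the end. Its median over the 21 libraries was 192. Its mean was 117 ± 92.9 FPKM in the libraries of 10 to 100 min and 213 ± 35.6 in those of 110 to 200 min (SD, n = 10 each), and 1 late library, at 120 min, lay above the highest early one, so the windows overlap.

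LYS21 (YDL131W, chromosome IV, 227393 to 228715, 1 coding exon) was nearly level at first. It lay between 89.6 and 98.1 FPKM from 0 to 70 min and then reached 121 at 80 min. The highest library, at 120 min, had 149, the last 125, and the median was 113. Its window means were 102 ± 11.1 and 127 ± 11.04 FPKM (SD, n = 10 each), and 8 of 10 late libraries lay above all early ones.

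The pair changed places. LYS20 made up 30.8% of the summed FPKM of both at 0 min and 17.6% at 30 min. Its share was 53.8% at 60 min and 69.5% at 80 min, and it stood above LYS21 in all 15 libraries from 60 min on. The sum of both went from 118 FPKM (30 min) to 451 (120 min), and most of that difference was LYS20. The coding sequences are 91.4% identical over 1281 aligned positions, with one identical stretch of 278 bp, and the sources do not say how reads of both genes were split. The exact share of each gene is uncertain for that reason.

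**Figure D3:**
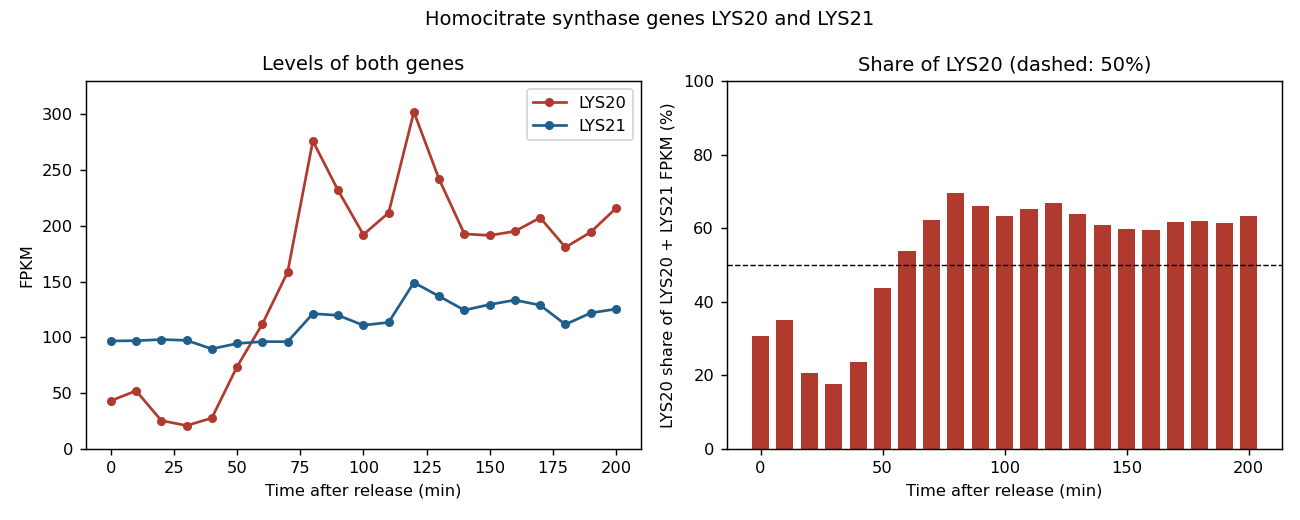
Left, FPKM of LYS20 and LYS21 against time after release in min, 1 library per point. Right, LYS20 as a percentage of the summed FPKM of both genes, from 17.6% at 30 min to 69.5% at 80 min; the dashed line is 50%.

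LYS4 and LYS12 take the mitochondrial steps after homocitrate. LYS4 (YDR234W, chromosome IV, 931129 to 933210), homoaconitase, started at 55.3 FPKM, was lowest with 44.9 at 30 min and highest with 112 at 120 min, and ended at 81.7 (median 75.7). Like LYS20 it had a first high at 80 min (106) and a dip at 100 min (81.5). LYS12 (YIL094C, chromosome IX, 186517 to 187632), homoisocitrate dehydrogenase, was the most abundant of the 8 at 0 and 30 min. It started at 175.5 FPKM, was lowest with 157 at 20 min, passed 253 at 50 min and 359 at 80 min, was highest with 422 at 120 min and ended at 312 (median 320.1). Window means were 67.3 ± 21.3 and 84.2 ± 12.7 FPKM for LYS4 and 255 ± 79.7 and 349 ± 34.2 for LYS12 (SD, n = 10 each), with overlap in both genes.

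LYS2, LYS9 and LYS1 encode the enzymes that turn alpha-aminoadipate into lysine. LYS2 (YBR115C, chromosome II, 469748 to 473926), alpha-aminoadipate reductase, had its lowest value, 35.9 FPKM, at 0 min. It was still at 42.7 at 30 min and 63.4 at 70 min, was highest with 116 at 110 min and ended at its median of 87.9. LYS9 (YNR050C, chromosome XIV, 714048 to 715388), the saccharopine dehydrogenase that forms saccharopine, started at 110.1 and was lowest with 63.7 at 30 min. It passed 133 at 70 min and 303 at 100 min, was highest with 457 at 130 min and ended at 303 (median 301). LYS1 (YIR034C, chromosome IX, 419615 to 420736), the saccharopine dehydrogenase that releases lysine, started at 83.0, stood at 103 at 10 min and was lowest with 46.4 at 30 min. It passed 105 at 70 min and 205 at 90 min, was highest with 370.5 at 120 min and ended at 267 (median 205). From 80 to 100 min, where LYS20 and LYS4 dipped, LYS9, LYS2 and LYS1 went up, by 0.55, 0.24 and 0.16 on the log2 scale. With equal sums of FPKM the dips were smaller (LYS20 -0.34 in place of -0.52, LYS4 -0.19 in place of -0.37), the steps of LYS9, LYS2 and LYS1 were 0.73, 0.42 and 0.34, and LYS12 and LYS21 turned from -0.08 and -0.13 to 0.10 and 0.05.

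In LYS1 all 10 late libraries lay above every library of 10 to 100 min (275 ± 40.6 against 109.5 ± 63.96 FPKM). In LYS9 8 of 10 did (381 ± 51.8 against 143 ± 85.4), and in LYS2 3 of 10 (97.4 ± 11.2 against 62.5 ± 21.6; SD, n = 10 each). The order of the levels, which FPKM allows because it is per length, changed as well. At 30 min it ran LYS12, LYS21, LYS9, LYS14, LYS1, LYS4, LYS2 and LYS20. At 120 min it ran LYS9, LYS12, LYS1, LYS20, LYS21, LYS4, LYS2 and LYS14. LYS9 (427 FPKM) and LYS12 (422) at 120 min, and LYS4 (112) and LYS2 (111), differ by less than these genes varied between neighbouring libraries.

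LYS14 (YDR034C, chromosome IV, 509737 to 512109), the activator gene, ran another course, as deposited. It was lowest at 0 min with 30.4 FPKM and highest at 20 min with 53.6, with 53.0 at 30 min, when the enzyme genes were low. It was down to 33.3 at 80 min, up to 46.8 at 100 min and down to 35.5 at 120 min, and ended at 36.7 (median 40.9). Its window means were 42.6 ± 6.99 and 39.6 ± 3.81 FPKM (SD, n = 10 each), and no late library lay above the highest early one. At 120 min, where 5 enzyme genes were highest, LYS14 stood 0.38 lower than at 110 min on the log2 scale. With equal sums of FPKM the highest LYS14 library was that of 110 min (56.8), 1 late library lay above all early ones, and the step to 120 min was -0.73.

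**Figure D4:**
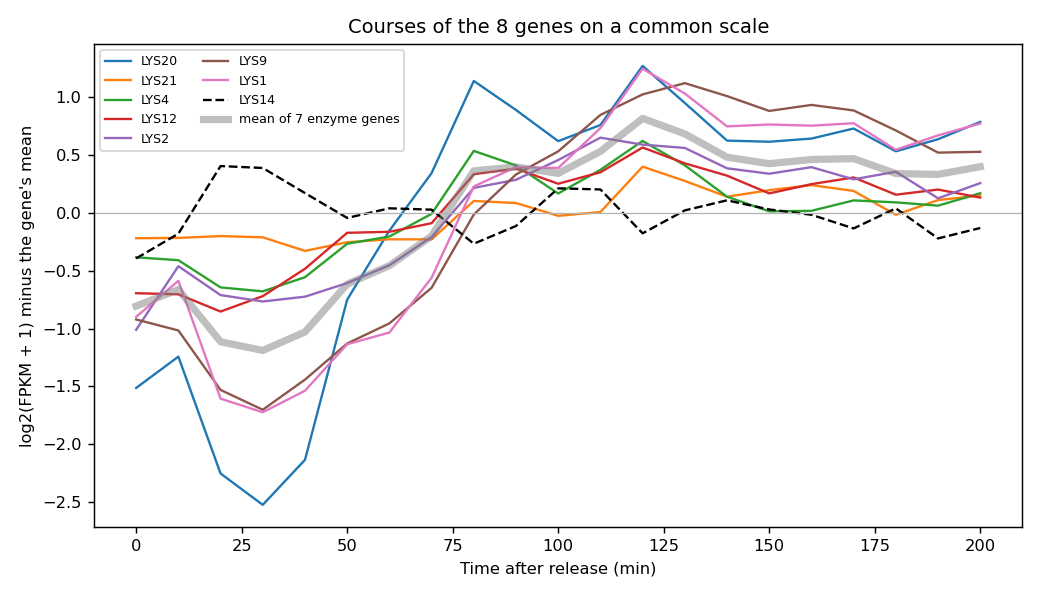
Each gene as log2(FPKM + 1) minus its own mean over the 21 libraries, against time after release in min; the thick grey line is the mean of the 7 enzyme genes and the dashed line LYS14. The grey line runs from -1.19 (30 min) to 0.82 (120 min), and LYS14 is at 0.41 at 20 min.

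Pearson's r of log2(FPKM + 1) over the 21 libraries lay between 0.79 (LYS21 and LYS4) and 0.98 (LYS9 and LYS1) for the 21 pairs of enzyme genes, with a median of 0.90. With LYS14 it lay between -0.40 (LYS20) and -0.10 (LYS2). All points are libraries of 1 culture and neighbouring times are alike, so r describes likeness of course only.

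The climb did not come at the same time in every gene. The midpoint, on the log2 scale, between the lowest value of 10 to 60 min and the highest later value was crossed at 52.1 min by LYS20, 62.6 by LYS12, 69.0 by LYS4, 73.5 by LYS2, 74.1 by LYS1, 75.6 by LYS9 and 78.0 by LYS21. LYS20 crossed more than 1 sampling interval of 10 min before any other, also with libraries rescaled to one sum of FPKM (54.3 min, next LYS4 at 71.3) or by median ratios (52.2 min, next LYS12 at 63.2). LYS2, LYS1, LYS9 and LYS21 lay closer together than that interval. From 40 to 50 min LYS20 went up by 1.39 on the log2 scale and the other enzyme genes by 0.08 to 0.40. With equal sums of FPKM LYS20 went up by 1.25, while LYS21 (-0.056) and LYS2 (-0.012) went down. From 70 to 80 min all 7 stood higher, by 0.33 (LYS21) to 0.80 (LYS20), and LYS14 lower by 0.29. The median step over all loci was 0.02 there, with an SD across loci of 0.55.

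The high point at 120 min depends in part on how libraries are scaled. From 110 to 120 min, LYS20 and LYS1 both stood 0.51 higher on the log2 scale and LYS21 0.39, LYS4 0.25, LYS12 0.21 and LYS9 0.18, while LYS2 was lower by 0.06. The 120 min library had a larger sum of FPKM (1611673) than those at 110 min (1255774) and 130 min (1385873). With every library rescaled to the same sum, the step was 0.15 in both LYS20 and LYS1 and -0.11 in LYS4, and the highest library became 130 min for LYS21 and LYS1 and 110 min for LYS4, LYS12 and LYS14, the last from 20 min. It stayed at 120 min for LYS20. With median-ratio scaling the times of the highest values were those of the deposited scale in all 8 genes.

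Change over time was fitted across all loci with a natural cubic spline in limma, and a locus was called where the adjusted p was under 0.05 and the fitted curve spanned 1 or more in log2(FPKM + 1). Of 6198 loci 44.8% were called. Of the 8 genes, whose courses chose them, 6 were, namely LYS20 (fitted range 3.24), LYS9 (2.62), LYS1 (2.59), LYS2 (1.42), LYS12 (1.15) and LYS4 (1.08). LYS4 was just short without the 30 min library (range 0.998), which leaves 5. LYS21 (0.52) and LYS14 (0.72, or 0.45 without the 0 min library) were under the minimum. The spread of single libraries around the curve was 0.10 (LYS9) to 0.27 (LYS20) on the log2 scale (residual SD). The median range was 1.28 for the 8 genes and 0.99 for all loci.

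In limma, means of 110 to 200 min against 10 to 100 min gave 2.41% of 6194 loci called higher and 0.678% called lower by at least 1 (adjusted p under 0.05). Of the 8 genes 3 were among the higher ones, LYS9 with a difference of 1.60 on the log2 scale, LYS1 with 1.52 and LYS20 with 1.36. With a linear term in time none of the 3 was called and LYS20 stood at -0.43. LYS2 was at 0.69, LYS12 at 0.51, LYS4 at 0.37, LYS21 at 0.32 and LYS14 at -0.09. For 110 to 150 against 10 to 50 min LYS2 was at 1.16 and among the called, and the median of the 8 genes was 1.06. The share of all loci called higher in those windows and the median of all loci are not reported here, so nothing is read from either value. The sign for LYS14 turned with equal sums of FPKM (0.12). The median was 0.60 for the 8 genes and 0.04 for all loci. With equal sums the median of all loci became 0.24, and 267 loci were called higher and 14 lower against 149 and 42 here. The median of the 8 genes with equal sums is not reported here, so 0.60 is not to be set against 0.24.

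Between 0 min and the mean of 20, 30 and 40 min the genes parted. LYS20 was lower by 0.79 on the log2 scale, LYS1 by 0.72, LYS9 by 0.64 and LYS4 by 0.24, LYS21 and LYS12 were at -0.03 and 0.01, and LYS2 (0.28) and LYS14 (0.72) were higher. None of the 8 differed by 1 or more, a size reached downward by 18.8% and upward by 10.8% of 6198 loci. With equal sums of FPKM LYS4 stood at -0.044, LYS9 at -0.44, LYS21 at 0.17, LYS12 at 0.21, LYS2 at 0.47 and LYS14 at 0.91. The median of the 8 genes was then 0.064 in place of -0.14, and the median of all loci 0.09 in place of -0.09. There is 1 library at 0 min and no test. The drop in LYS20 and LYS1 came between 10 and 20 min (by 1.01 and 1.02).

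Other genes of the pathway were taken as a list of 5. By the limma spline 4 of 5 changed over time, against 44.8% of all loci. ODC2, a mitochondrial carrier of oxodicarboxylates, rose from 56.2 FPKM (0 min) to 166 (200 min) (adjusted p = 2.47e-07). ARO8, an aminotransferase that makes alpha-aminoadipate, fell from 432 (0 min) to 201 (40 min) and had 438 at 200 min (adjusted p = 6.73e-06). ODC1, the paralogue of ODC2, fell from 46.9 (0 min) to 16.6 (30 min) and was highest at 120 min with 49.02 (adjusted p = 0.0103). That call was lost without the 0 min (0.0761) or the 30 min library (0.103), and with a spline of 4 degrees of freedom (0.0829).

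LYS5, whose product activates the Lys2 enzyme, lay between 38.0 and 59.8 FPKM (fitted range 0.31, adjusted p = 0.0985). Without the 0 and 10 min libraries the ranges of ARO8 (0.97) and ODC2 (0.90) were under 1, and ARO8 was also under it with 4 degrees of freedom (0.97). By limma, none of the 5 passed in the comparison of windows with a difference of at least 1. At an unadjusted p under 0.05 there were 3 and at the adjusted threshold 2, ODC2 (0.59, adjusted p = 9.14e-06) and ARO8 (0.47, adjusted p = 0.000791).

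Of 6 genes of regulation 1 was called over time (44.8% of all loci). GCN4 went from 3209 FPKM (0 min) to 1402 (190 min), with a fitted range of 0.98 just under the minimum (limma, adjusted p = 3.20e-06), and passed without the 200 min library (1.13) or with 4 degrees of freedom (1.07). GCN4 is controlled mainly at translation, which these libraries do not measure. RTG1, a subunit of the retrograde activator, was the one called, with 3.69 to 16.5 FPKM and an adjusted p of 0.0437. It was lost without any 1 of the libraries at 0, 10, 20, 30, 40, 60, 70, 80, 90, 110 and 130 min (adjusted p = 0.0586 to 0.221). The kinase gene GCN2 (26.8 to 37.8 FPKM), the repressor gene MKS1 (27.5 to 33.7) and the retrograde genes RTG2 (70.8 to 90.4) and RTG3 (28.5 to 37.9) had fitted ranges of 0.16 to 0.34. None of the 6 passed between the windows with a difference of at least 1 by limma (2 at an unadjusted p under 0.05, 1 at the adjusted threshold, GCN4 at -0.39).

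Transport and use of lysine were covered by 8 genes, of which 7 could be tested. None was called over time by limma at the minimum range, though 5 had an unadjusted and also an adjusted p under 0.05. LYP1, the lysine permease, lay between 102 FPKM at 30 min and 196 at 80 min (fitted range 0.70). CAN1, the arginine permease, lay between 99.0 and 169, and KRS1, the lysyl-tRNA synthetase, between 465 and 621. The vacuolar transporter genes VBA1 (0.66), VBA2 (0.30) and YPQ1 (0.24, listed as YOL092W) and the mitochondrial synthetase gene MSK1 (0.91) had ranges under 1, MSK1 reaching 1.03 without the 10 min library and 1.07 with 8 degrees of freedom. Without the 0 min library the range was 0.18 for MSK1, 0.32 for VBA1 and 0.64 for CAN1, whose range was 0.39 with all libraries and 0.23 without 10 min. VBA3 was listed at 0 in every library. No gene of this list passed between the windows with a difference of at least 1 (limma; 3 at an unadjusted p under 0.05, and CAN1 and VBA1, both lower, at the adjusted threshold). With equal sums of FPKM those 2 stood at 0.037 and 0.021 in place of -0.17 and -0.19.

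Genes of the supply and use of 2-oxoglutarate and glutamate numbered 12, of which 10 changed over time, against 44.8% of all loci. GLN1, glutamine synthetase, fell from 592 FPKM (0 min) to 78.4 (30 min) (limma, adjusted p = 2.53e-06). CIT2, the peroxisomal citrate synthase, fell from 344 to 70.1 over the same time (adjusted p = 5.76e-09). Without the 0 min library the fitted range was 2.02 in place of 3.12 for GLN1 and 1.09 in place of 2.12 for CIT2. ACO1, aconitase, rose from 157 (30 min) to 766 (200 min) (adjusted p = 1.99e-08). Of 11 tested between the windows, IDP2, a cytosolic isocitrate dehydrogenase gene named after its value was seen, was the one called, with a difference of 1.16 (adjusted p = 1.17e-05), where 2.41% of all loci were called higher.

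Genes for other amino acids gave a comparison of 40 genes in 5 lists. Over time 17 of 40 were called, against 44.8% of all loci, and 1 of 40, ARG1, was called higher in the late window (2.41% of all loci). Medians of the difference between windows were 0.67 for arginine (8 genes), 0.46 for histidine (6 genes), 0.22 for threonine and homoserine (5 genes), 0.14 for branched-chain (10 genes) and 0.10 for aromatic amino acids (11 genes). ARG1, argininosuccinate synthetase, went from 66.7 FPKM (30 min) to 661 (170 min) (difference 1.44, limma, adjusted p = 0.00145), and its difference was -0.13 and not called with a linear term in time. ARG3, ornithine carbamoyltransferase, stood at 0.95 (adjusted p = 4.25e-05) and HIS3, of histidine synthesis, at 0.96 (adjusted p = 0.00252), both just under the minimum of 1. ARG3 passed it without the 90 or 100 min library (1.03 and 1.05), and HIS3 without any 1 of those at 10, 80, 90, 110 and 180 min (1.01 to 1.07). Both also passed with equal sums of FPKM (1.16 and 1.17), where 267 loci were called higher in place of 149. For 110 to 150 against 10 to 50 min they stood at 1.20 and 1.22 and passed. The count of 1 in 40 thus depends on scaling and windows. The difference between the lysine genes and these lists was not tested, since the 8 genes were chosen by their values.

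**Figure D5:**
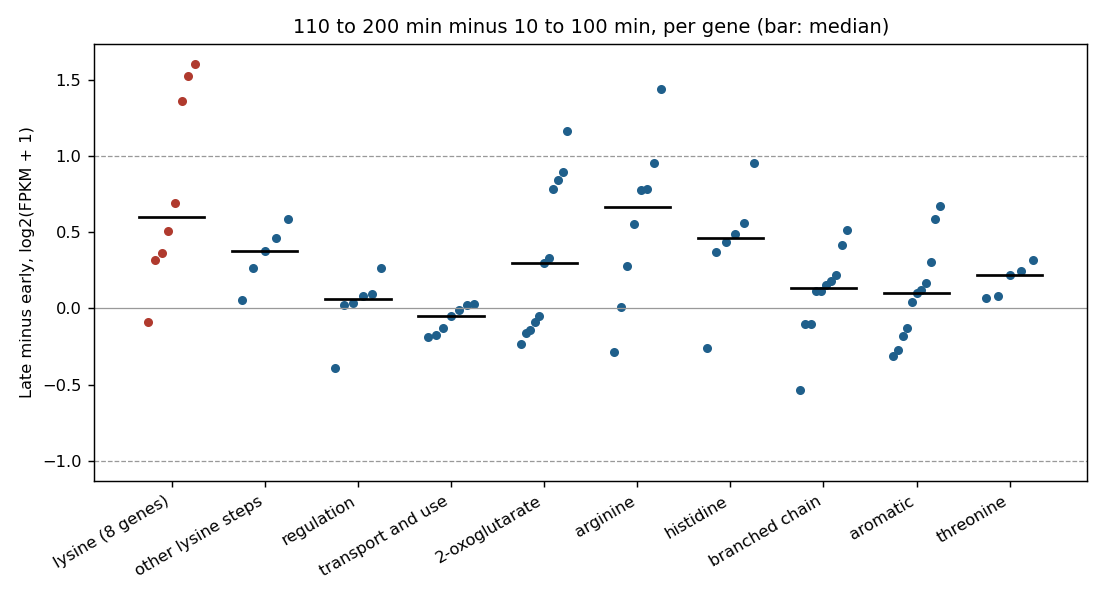
Difference between the mean log2(FPKM + 1) of 110 to 200 min and that of 10 to 100 min, 1 point per gene, for the 8 lysine genes (red) and 9 other lists (blue). Bars are list medians, 0.60 for the lysine genes and 0.67 for arginine, and dashed lines stand at 1 and -1.

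The 10 genes of at least 300 bp whose course was most like the mean of the 8 were QDR3 (r = 0.98), RIM15 (0.96), ARG1 (0.96), PRD1 (0.96), ECM29 (0.96), PIM1 (0.96), SGT2 (0.96), CDC53 (0.96), HIS7 (0.96) and PDR15 (0.96), over 21 libraries. QDR3, a membrane transporter gene, ran between 38.1 FPKM (30 min) and 71.0 (120 min). ECM29, which encodes a proteasome-associated protein, went from 14.6 (0 min) to 59.7 (110 min), and PIM1, the mitochondrial Lon protease, from 24.0 (30 min) to 59.2 (120 min). HIS7, of histidine synthesis, had 52.6 at 0 min and 91.4 at 160 min. Of 6198 loci, 80 other than the 8 had r of at least 0.90. Without the 0 min library 3 of the 10 remained among the 10 most alike.

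CDC53, the cullin of a ubiquitin ligase, is also the gene next to LYS21, 641 bp upstream on the same strand. It went from 30.0 FPKM (30 min) to 73.0 (180 min). Of the 16 protein-coding neighbours of the 8 genes, 9 were called over time by limma against 44.8% of all loci. None was called higher late (2.41% of all loci). CDC53 was the one neighbour with r of at least 0.90, a value reached by 80 of 6198 loci other than the 8. Each r here is with the mean of the 8 genes, not with the adjacent gene. MRX19, which lies 1603 bp upstream of LYS20 on the other strand, had r of 0.86, and NRE1, 289 bp upstream of LYS1, had -0.26. Among the 16 neighbours, the courses most opposite to that mean were those of RTN1, 771 bp upstream of LYS4 on the other strand (-0.86), and MRH1, downstream of LYS14 (-0.82). LYS14 itself had r of -0.28 with that mean, which includes it, and -0.32 with the mean of the 7 enzyme genes.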

How the data were processed

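The authors deposited one table with a value per locus and time point for the 21 mutant libraries, made from stranded mRNA libraries per the labels' protocols and with STAR, Cufflinks, Cuffnorm and genome build R64 per the submitters' processing notes. The deposited values are FPKM scaled across libraries with 1 added, as inferred from the values (none was under 1 and library sums differ), and that 1 was subtracted. A deposited table of 50 columns of another series was not used here. The names of 87.1% of loci matched the R64 annotation, which is the build the notes name.

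All fits used log2(FPKM + 1) and limma (version 3.58.1, R 4.3.3; moderated variances, mean-variance trend, Benjamini-Hochberg adjustment over all loci), for loci with a mean FPKM of at least 1, with a natural spline (6 degrees of freedom) over 21 libraries or with 2 windows of 10 libraries. Differences given as log2 are on that scale, which understates changes of low genes, while values given as fold are ratios of FPKM. Since the libraries come from 1 culture, p-values are too small and measure the spread between these libraries, which may be technical. The fits were tested on simulated data, with noise independent between libraries and planted changes centred near the boundary of the 2 windows. Such data cannot show how far the shared culture affects the p-values. Sequences were read with Python 3.11.15, and coding sequences were aligned with Biopython 1.88. The 8 genes, the lists, the tests and the rule for named genes (all genes of the 3 other lysine lists, the 10 most alike loci, and up to 3 genes of each further list by fitted range, with IDP2 added after its value was seen) were chosen with earlier results of these data known. Results for some genes of these lists are not reported here. Alternatives covered pseudocount, filter, scaling, spline, windows and each library left out.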

Additional observations from a re-analysis of the deposited data

How the results depend on the processing

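The 8 genes were chosen by their values, so their counts only describe. The count called over time was 6, and 5 without the 30 min library. The count called higher late was 3, other than with an added linear term (0) and windows of 110 to 150 against 10 to 50 min (4, with LYS2 at 1.16). Loci called over time numbered 2775, and 1734 without the 0 and 10 min libraries. Equal sums of FPKM gave 267 loci higher and 14 lower late against 149 and 42, and turned the median of the 8 genes between 0 and 20 to 40 min from -0.14 to 0.064. For 110 to 150 against 10 to 50 min, 103 loci were lower and the median of the 8 genes was 1.06 in place of 0.60. The share of all loci called higher there and their median are not reported here, so the 4 and the 1.06 cannot be set against them. A linear term in time, which is correlated with the windows, left 0 loci higher, 0 lower and 0 of the 8 genes called. At an unadjusted p under 0.05 (limma) there were 523 loci and 0 of the 8. The median of the 8 genes was then 0.18, with LYS20 at -0.43 and ARG1 at -0.13. Of the 10 most alike loci, 6 were shared with equal sums, 3 without the 0 min library and 3 without 0 and 10 min, and 3 to 10 with single libraries left out. No paired analysis was possible because each time point is 1 library. Depth is unknown, so counting error cannot be given.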

Other observations

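In the lists of other amino acids, the genes with the largest fitted ranges moved in several ways (limma, spline over time). HIS4, of histidine synthesis, changed with 20.2 to 59.7 FPKM (range 1.45, adjusted p = 5.96e-05). HIS6 was highest at 30 min, when LYS enzyme genes were low, with 94.7 FPKM against 27.9 at 0 min (range 1.75, adjusted p = 1.21e-06), and its range was 0.96 without the 0 min library. TRP2, of tryptophan synthesis, rose from 115 FPKM (30 min) to 281 (180 min) (range 1.19, adjusted p = 3.13e-09), and TRP5 from 136 (30 min) to 395 (200 min) (range 1.34, adjusted p = 1.23e-05).

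LEU4, a leucine synthesis enzyme of the same reaction type as homocitrate synthase, fell from 428 FPKM (0 min) to 126 (60 min) (range 1.91, adjusted p = 9.08e-06). Its call was lost without the 0 and 10 min libraries (adjusted p = 0.189). BAT2 had a range of 1.46 (adjusted p = 0.00177) and 0.82 without those libraries, and ARO3 a range of 1.28 (adjusted p = 5.94e-07) and 0.93 without the 0 min library. ILV6 (range 2.18, adjusted p = 0.0103) and THR1 (1.58, adjusted p = 0.0164) were both lost without the 0 min library (adjusted p = 0.0873 and 0.0976). HOM2 stood at the minimum (1.01) and was under it with either other scaling (0.95 and 0.92), without the 0 min library (0.65), with 4 degrees of freedom (0.63) and without any 1 of the libraries at 10, 20, 30, 60 and 80 min (0.87 to 0.98), and HOM3 was under it (0.78) but at 1.14 with equal sums of FPKM.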
